A study of Mus musculus with 6 samples.

Results

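The PGC-1 network switches on mitochondrial biogenesis, and 9 of its regulators were followed in a cell model of myotonic dystrophy type 1 (DM1). They were chosen by gene symbol from the 55421 genes of the count table, and all 9 had a row there. The model rests on C2C12, mouse muscle precursor cells of an established line that form myotubes once serum is lowered. They were stably transfected, under G418 selection, with a *GFP* plasmid whose 3′ untranslated region holds 5 CTG repeats (C2C12-CUG5, called normal) or 200 CTG repeats (C2C12-CUG200, called DM1), and total RNA was sequenced at differentiation day 4. Each group had 3 libraries, numbered 1 to 3. Both groups carry a *GFP* plasmid and were kept in the same differentiation medium, and the study calls the libraries of a group biological replicates. Whether they came from separate transfections is not given in the sources used here, so p-values measure the spread between these libraries. The comparison asks how the regulators differed in transcript level between DM1 and normal cells during differentiation.

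PGC-1α, encoded by *Ppargc1a*, and PGC-1β, encoded by *Ppargc1b*, are coactivators without a DNA-binding domain of their own. They dock on nuclear receptors such as the estrogen-related receptors (*Esrra*, *Esrrg*) and the peroxisome proliferator-activated receptors (*Ppara*, *Ppard*) and on the respiratory factors NRF1 and GABPA. These factors drive genes of the respiratory chain and of fatty acid oxidation, as well as *Tfam*, whose protein packages mitochondrial DNA and starts its transcription. In skeletal muscle the network is known for setting mitochondrial content in response to exercise and to AMP-activated protein kinase (AMPK), and mitochondrial content rises as myoblasts become myotubes.

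The libraries summed to between 61707889 and 80957325 counts. A count stood for about 75 aligned bases and not for 1 read, and the intervals below cover only the spread between libraries. Of 21 genes of differentiated muscle, edgeR's quasi-likelihood test called 17 lower and 0 higher in the DM1 group at an adjusted p under 0.05, with a median log2 fold change of -0.83, where 8.73% of all tested genes were called lower. At an unadjusted p under 0.05, 18 of the 21 were called, 1 of them higher, where 16.0% of all tested genes were lower and 14.7% higher. These genes included *Ckm*, the muscle creatine kinase, at 361 ± 23.6 CPM (TMM-scaled counts relative to library size, SD, n = 3) in the normal and 201 ± 7.29 CPM in the DM1 group, and *Myh3*, the embryonic myosin heavy chain, at 1373 ± 182 and 549.9 ± 112 CPM. The 8 that also passed the study's cutoff of an absolute log2 fold change over 1 were *Myh3*, the perinatal *Myh8* (log2 fold change -2.90), the slow *Myh7* (-2.13), the fast *Myh1* (-1.78), *Myh2* (-1.76), and *Myh4* (-1.42), the Z-disc gene *Actn2* (-1.22), and the transcription factor gene *Mef2c* (-1.01, but -0.62 without normal library 3). The summed level of the 21 genes was 14583 to 17220 TPM (coverage scaled for transcript length and library size) in the normal and 9569 to 11460 TPM in the DM1 libraries, so the groups did not overlap. The 1 gene higher at the unadjusted p was the myoblast fusion gene *Mymx*. It had 59.9 ± 1.37 CPM in the normal and 70.1 ± 3.13 CPM in the DM1 group (log2 fold change 0.23, adjusted p = 0.0732, edgeR). *Mymk* (log2 fold change -0.55), *Mylpf* (-0.16), and *Tnni2* (-0.05) were not called either. Of 12 genes listed for undifferentiated myoblasts, 3 were lower (*Cdh15*, *Myod1*, and *Hes1*) and *Id2* was higher. Over all tested genes 7.13% were called higher. The list is not exclusive to that state. The study counts *Myod1* among the myogenic regulatory factors, and by RT-qPCR found it lower in DM1 cells during differentiation. With each library left out in turn, the call of *Id2* was lost in 5 of 6 fits and those of *Myod1* and *Hes1* in 2 each. *Cdh15* was called in each of these fits. The cycling genes *Mki67* and *Top2a* were not called. None of 8 adipocyte markers passed the filter on low counts, and 6 of them, *Adipoq*, *Lep*, and *Fabp4* among them, were at 0 in every library. Of 6 endothelial markers *Tek* was the one that passed. It was lower in the DM1 group, from 8.74 ± 0.907 to 4.52 ± 0.992 CPM, and its call was lost without DM1 library 2 (adjusted p = 0.0526, edgeR). Of 6 macrophage markers *Ptprc* and *Adgre1* were at 0 in every library. *Cd14* (7.15 ± 0.276 and 9.34 ± 1.22 CPM), *Cd68* (3.49 ± 0.572 and 3.69 ± 0.621 CPM), and *Csf1r* (0.319 ± 0.216 and 0.417 ± 0.190 CPM) passed the filter and were not called, with log2 fold changes of 0.39, 0.08, and 0.38, and the groups of *Cd14* did not overlap. The part that the muscle and other markers have in the changes of the regulators was not tested, and in RNA from whole cultures fewer myotubes and less RNA per myotube cannot be told apart.

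Among the 9 regulators 7 had enough counts for a test, and *Esrrg* and *Ppara* did not. Levels are compared between genes in TPM, which corrects for transcript length. *Gabpa* had the highest level of the 9, from 37.6 to 53.9 TPM over the 6 libraries, with no other regulator within its range. *Esrra* (14.6 to 23.6 TPM) and *Tfam* (14.0 to 21.7 TPM) followed and traded places, since *Esrra* was the higher in 3 of 6 libraries. *Ppard* (8.82 to 17.4 TPM) lay below *Tfam* in 6 of 6 libraries and did not differ in order from *Nrf1* (8.86 to 13.8 TPM), above which it lay in 3 of 6. The coactivators were the least abundant of the measurable regulators, with *Ppargc1b* between 3.41 and 6.60 TPM and *Ppargc1a* between 1.01 and 2.34 TPM. The order *Nrf1*, *Ppargc1b*, *Ppargc1a* held in 6 of 6 libraries without overlap.

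Both PGC-1 coactivators were lower in the DM1 group, and they were the only regulators called of the 7 tested. Counted against the background, 2 of 7 were called lower where the same test called 8.73% of all 19005 tested genes lower, and 0 of 7 were called higher, where it called 7.13%. At an unadjusted p under 0.05 the counts were 3 lower and 0 higher, against 16.0% and 14.7% of all tested genes. With DESeq2 the counts were also 2 lower and 0 higher, and DESeq2 called 12.2% of all genes lower and 10.9% higher. No regulator passed the study's cutoff on the fold change, which 2.18% of tested genes passed together with the adjusted p, 0.816% lower and 1.36% higher. The median log2 fold change of the 7 was -0.26, with 6 of 7 below 0, and that of all tested genes was 0.02.

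*Ppargc1a* (ENSMUSG00000029167) occupies bases 51454250 to 51567726 of chromosome 5 (GRCm38, minus strand). Its counts were 707, 485, and 570 in normal libraries 1, 2, and 3 and 312, 354, and 340 in DM1 libraries 1, 2, and 3. After scaling by the TMM method these were 8.41, 7.90, and 8.16 CPM against 4.20, 4.97, and 5.11 CPM. The 3 normal libraries lay close together and every DM1 library lay far below them. On the log2 scale the fold change was -0.78 (SE 0.134, 95% interval -1.08 to -0.47, adjusted p = 0.00816, edgeR), so the transcript was 41.6% lower in the DM1 group. With each library left out in turn the log2 fold change stayed between -0.83 and -0.68 and the adjusted p between 0.00836 and 0.0422. The call was lost when the deposited TPM values were tested with limma on log2(TPM + 1), at a log2 fold change of -0.52 (adjusted p = 0.0820). It was also lost with limma on log2(TPM + 0.1) (adjusted p = 0.0900), where the fold change was about as large as with edgeR. In TPM the libraries had 2.32, 2.01, and 2.34 in the normal and 1.01, 1.19, and 1.60 in the DM1 group, and these groups did not overlap either.

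*Ppargc1b* (ENSMUSG00000033871), on the minus strand of chromosome 18 from 61298136 to 61400431, encodes the coactivator most like PGC-1α. Its counts were 971, 858, and 941 in normal and 600, 656, and 699 in DM1 libraries. These were 11.6, 13.97, and 13.5 CPM against 8.07, 9.21, and 10.5 CPM, and the lowest normal library lay just above the highest DM1 library. This gave a log2 fold change of -0.49 (SE 0.140, 95% interval -0.81 to -0.17, adjusted p = 0.0471, edgeR), which is 28.7% lower. This call sat at the threshold. It was lost without DM1 library 1 (adjusted p = 0.113), without DM1 library 2 (0.133), without normal library 1 (0.0657), without normal library 2 (0.145), and without normal library 3 (0.160), whereas without DM1 library 3 the adjusted p was 0.0220. The direction was the same in all of these fits.

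Whether the coactivators fell unequally was asked from their log2 ratio of CPM, with 0.1 CPM added to each. The ratio of *Ppargc1a* to *Ppargc1b* was -0.45, -0.82, and -0.72 in the normal libraries and -0.93, -0.88, and -1.03 in the DM1 libraries. Each DM1 library lay below each normal library, by a mean of 0.28. An exact permutation test (two-sided) gave p = 0.1, the smallest that 3 libraries against 3 allow, and 0.3 after Benjamini-Hochberg adjustment over the 3 ratios. With that smallest p the test could not have passed the threshold for a call, whatever the values. It therefore could not decide whether the coactivators fell unequally.

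**Figure D1:**
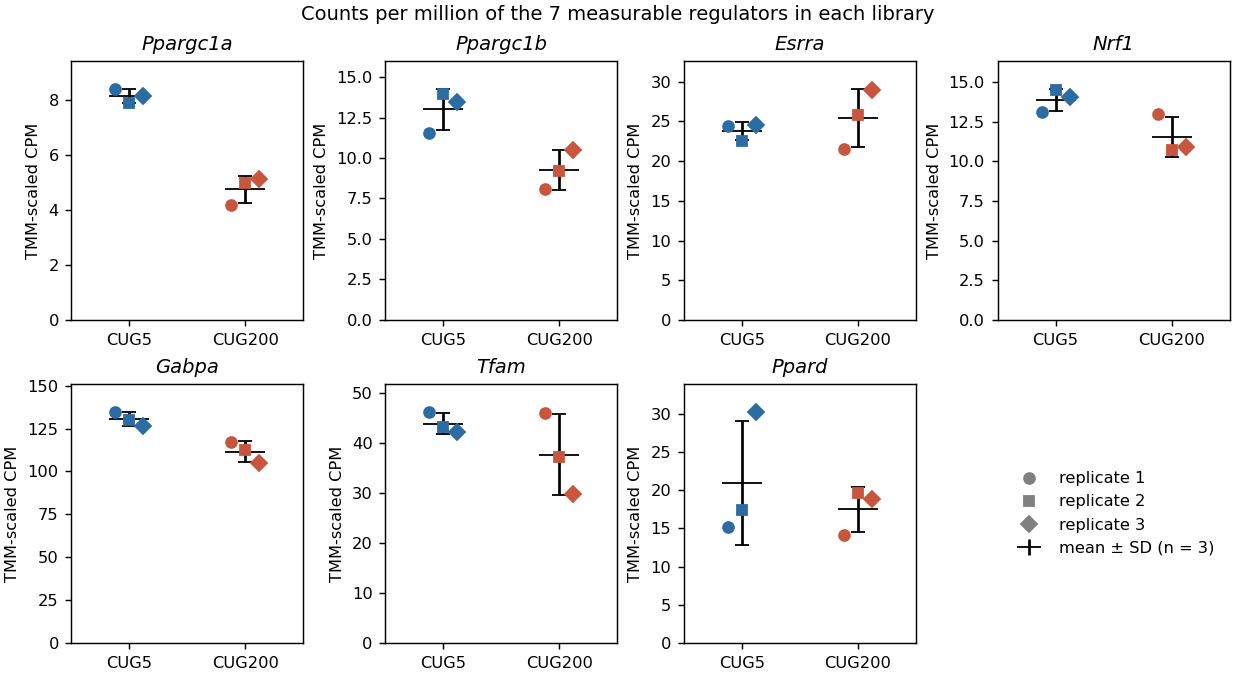
CPM after TMM scaling of the 7 regulators that passed the filter on low counts, in the 3 CUG5 and 3 CUG200 libraries. Points are libraries with a symbol for each replicate number, and bars are the mean ± SD (n = 3). The groups lie apart for *Ppargc1a*, *Ppargc1b*, *Nrf1*, and *Gabpa*, and the third CUG5 library stands alone at 30.3 CPM for *Ppard*.

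Of the ERR and PPAR genes, *Esrra* and *Ppard* were tested and not called, and *Esrrg* and *Ppara* had too few counts for a test. *Esrra* (ENSMUSG00000024955), on chromosome 19 from 6910977 to 6921813, encodes ERRα, the receptor through which PGC-1α raises respiratory chain genes. It had 24.4, 22.5, and 24.6 CPM in the normal libraries and 21.5, 25.8, and 28.9 CPM in the DM1 libraries, and the DM1 values lay on both sides of the normal ones. Its log2 fold change was 0.09 (SE 0.122, 95% interval -0.18 to 0.37, adjusted p = 0.667, edgeR), an interval that leaves room for a level between 0.881 and 1.29 times that of the normal group. On the log2(TPM + 1) scale the sign was the opposite, at -0.027. *Esrra* shares exonic bases with *Trmt112* on the other strand and with *Mir6990* on its own, and *Trmt112* was not called (adjusted p = 0.114, same test). The strand setting of the counting is not given in the sources used here.

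*Esrrg* (ENSMUSG00000026610), the ERR gene of oxidative muscle and heart, lies on chromosome 1 from 187608791 to 188214885. Its counts were 4, 0, and 0 in normal and 5, 0, and 8 in DM1 libraries. With a fragment worth about 4 counts, this is at most 2 fragments in a library, and a difference between the groups was not detectable at this depth. *Ppara* (ENSMUSG00000022383), the receptor that governs fatty acid oxidation in liver, lies on chromosome 15 from 85734983 to 85802819. It had 4 counts in normal library 3 and in DM1 library 1 and 0 in the other 4 libraries. A library at 0 allows up to 3 fragments, or about 12 counts, which is between 0.143 and 0.195 CPM in these libraries.

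*Ppard* (ENSMUSG00000002250), on chromosome 17 from 28232700 to 28301474, encodes the widely expressed PPARδ and had far more counts than *Ppara* in every library. It had 15.2, 17.4, and 30.3 CPM in the normal libraries and 14.1, 19.6, and 18.8 CPM in the DM1 libraries. Normal library 3 stood well above the other 5, which overlapped. Its log2 fold change of -0.26 (SE 0.268, adjusted p = 0.581, edgeR) had a 95% interval from -0.89 to 0.37, the widest of the 7. Without normal library 3 it was 0.12, so its sign rests on that library. The ratios of *Esrra* to *Esrrg* and of *Ppara* to *Ppard* rest on the added 0.1 CPM, since a partner was near 0 in each, and the exact permutation tests gave p = 0.4 and p = 0.9.

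The respiratory factors lay lower in the DM1 libraries without passing the test. *Gabpa* (ENSMUSG00000008976), on chromosome 16 from 84834925 to 84863779, encodes the DNA-binding subunit of the ETS factor that is also called NRF-2. It had 135, 129.8, and 126 CPM in the normal libraries and 117, 113, and 105 CPM in the DM1 libraries, with no overlap. The log2 fold change was -0.22 (SE 0.0802, 95% interval -0.41 to -0.04, adjusted p = 0.0939, edgeR), or 14.4% lower. An exon of *Gabpa* overlaps one of *Atp5j* on the other strand, which encodes a subunit of ATP synthase and was not called (adjusted p = 0.907, same test).

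*Nrf1* (ENSMUSG00000058440), on chromosome 6 from 30047988 to 30153458, encodes nuclear respiratory factor 1, which acts on many genes of the respiratory chain. It had 13.1, 14.5, and 14.0 CPM in the normal libraries and 12.95, 10.7, and 10.9 CPM in the DM1 libraries. DM1 library 1 came close to the lowest normal library, and the other DM1 libraries lay lower. For *Nrf1* the log2 fold change was -0.27 (SE 0.121, 95% interval -0.54 to 0.01, adjusted p = 0.171, edgeR). Groups without overlap, found here for *Ppargc1a*, *Ppargc1b*, *Nrf1*, and *Gabpa* (4 of 7, all lower), were seen in 37.2% of all tested genes in either direction and in 19.3% with the DM1 group lower.

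*Tfam* (ENSMUSG00000003923) lies on the minus strand of chromosome 10 from 71225464 to 71238280. It had 46.2, 43.2, and 42.2 CPM in the normal libraries and 45.98, 37.2, and 29.8 CPM in the DM1 libraries. The DM1 libraries were spread widely, with a coefficient of variation of 21.5% against 4.77% in the normal group, and DM1 library 1 lay among the normal ones. The log2 fold change was -0.22 (SE 0.146, 95% interval -0.55 to 0.11, adjusted p = 0.353, edgeR). It was -0.38 without DM1 library 1 and -0.08 without DM1 library 3, and neither passed the test.

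**Figure D2:**
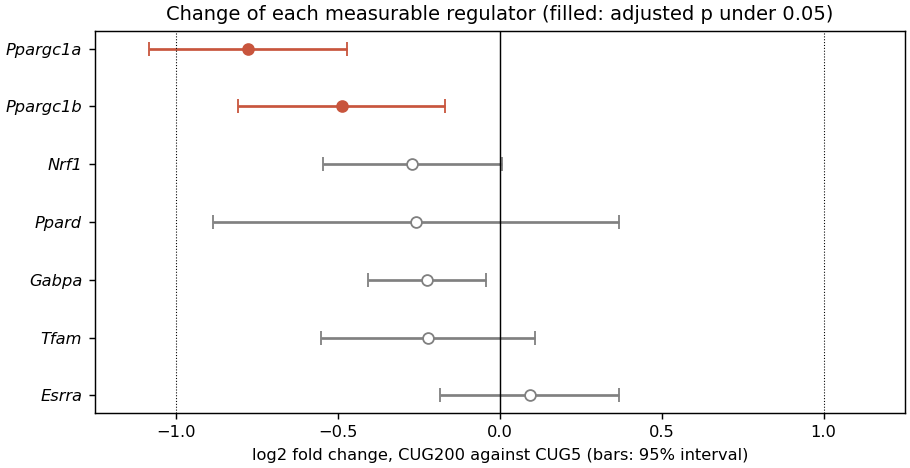
The log2 fold change of each of the 7 measurable regulators, DM1 (CUG200) against normal (CUG5), from edgeR's quasi-likelihood test on counts. Bars are 95% intervals, filled red points have an adjusted p under 0.05, and dotted lines mark the study's cutoff of 1 in either direction. *Ppargc1a* at -0.78 and *Ppargc1b* at -0.49 are filled, and *Esrra* at 0.09 is the one regulator above 0.

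The promoters were read for sites of the same factors, because *Tfam* is known as a target of GABPA and NRF1. RefSeq windows of 300 bases (250 before and 50 after a transcript start, build GRCm38.p6) were at hand for 8 of the 9 regulators, 12 windows in all, and *Ppargc1b* had none. The ETS motif CCGGAAG, searched on both strands as were the others, lay in the windows of *Tfam* and *Gabpa* and in 8.86% of all 32851 windows. The muscle E-box CAGCTG, a site for MYOD1 and myogenin, lay in those of *Esrra* and *Ppard* and in 16.3% of all. The NRF1 motif, GCGC and TGCGC with any base between them, lay in that of *Ppara* and in 4.60% of all. Neither the ERR motif AAGGTCA (4.72% of all) nor the full CRE motif TGACGTCA (1.79% of all) was found in a window of the 9, and the window of *Ppargc1a* held none of the 5 motifs. The 6 matches did not overlap each other. The sites of *Tfam* and *Gabpa*, a known target of GABPA and the gene of GABPA itself, and of *Esrra*, whose protein is the main partner of PGC-1α in muscle, are shown on the strand of their gene with the motif in capitals. The *Tfam* site begins 47 bases before the RefSeq start, at chr10:71238075-71238101 on the minus strand, inside an exon of a longer GENCODE transcript. The *Gabpa* site begins 93 bases before the start, at chr16:84835021-84835047 on the plus strand, with the motif in reverse. The *Esrra* site begins 4 bases before the start, at chr19:6921797-6921822 on the minus strand. The stretches shown for *Gabpa* and *Esrra* lie partly inside a GENCODE exon of their own gene. A match is a description of the sequence and not evidence of binding.
Tfam, ETS motif: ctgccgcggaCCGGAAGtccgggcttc
Gabpa, ETS motif: agggtaagtgCTTCCGGgtccctcagc
Esrra, muscle E-box: cctccgctgtCAGCTGgaggaagcgg

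Upstream of the coactivators, *Prkaa2* and *Prkag3* of AMPK and the deacetylase gene *Sirt1* were lower. Of 24 kinases, deacetylases, and activators known to act on *Ppargc1a* or its protein, 6 were lower and 1 was higher by edgeR's quasi-likelihood test, where 8.73% and 7.13% of all tested genes were. The median log2 fold change was -0.15. *Prkaa2*, the AMPK catalytic subunit α2 of muscle, had 6.16, 7.39, and 6.48 CPM in the normal libraries and 2.62, 2.70, and 2.71 CPM in the DM1 libraries, which lay close together far below them. Its log2 fold change was -1.32 (SE 0.145, adjusted p = 0.00198). *Prkag3*, the regulatory subunit γ3 of fast muscle, had 51.4 ± 2.22 CPM in normal and 27.9 ± 2.16 CPM in DM1 libraries and fell by 0.88 on the log2 scale (adjusted p = 0.00167, edgeR). The other 5 AMPK subunit genes were not called, with log2 fold changes between -0.45 and 0.35. *Sirt1*, the deacetylase that activates PGC-1α, was named for that role after its values were seen, and fell from 21.2 ± 3.24 to 13.1 ± 1.76 CPM (log2 fold change -0.69, adjusted p = 0.0177, edgeR). *Mef2c*, which binds the *Ppargc1a* promoter in muscle and also counts among the muscle genes, had a log2 fold change of -1.01 (adjusted p = 0.0471, edgeR) with normal libraries spread by an SD of 32.5 CPM around 81.5 CPM. Normal library 3 had 119 CPM, and without it the log2 fold change was -0.62 (adjusted p = 0.0238, edgeR). *Camk2d* and *Prmt1* fell by 0.39 and 0.41 on the log2 scale. *Map2k6*, the kinase that activates p38, rose from 1.90 ± 0.318 to 3.45 ± 0.261 CPM (log2 fold change 0.85, adjusted p = 0.0197, edgeR). Without normal library 2 the counts were 2 lower and 0 higher, without DM1 library 2 they were 3 and 0, and without DM1 library 1 they were 5 and 2. *Prkaa2* and *Prkag3* were called in each of the 6 fits with a library left out, and the other 5 genes were each lost in at least 2 of them.

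Most partners of the coactivators stayed uncalled. Of 22 cofactors and partner receptors, 21 were tested, *Ncoa1* and *Nrip1* were lower, and *Thra* was higher, with a median log2 fold change of -0.14. These 2 and 1 of 21 are near the 8.73% and 7.13% of all tested genes called lower and higher. *Ncoa1*, a nuclear receptor coactivator, fell from 20.1 ± 0.200 to 13.2 ± 0.797 CPM (log2 fold change -0.61, adjusted p = 0.00683, edgeR). *Nrip1* encodes RIP140, a corepressor that opposes PGC-1α, and had a log2 fold change of -0.56 (adjusted p = 0.0330, edgeR). *Thra*, the thyroid hormone receptor α, rose by 0.47 (adjusted p = 0.0150, edgeR). *Pprc1*, the third gene of the PGC-1 family, and *Perm1*, a muscle partner of PGC-1 and ERR, were named for their roles after their values were seen and had log2 fold changes of -0.02 and -0.14 (adjusted p = 0.969 and 0.695, edgeR). Without normal library 1, 2, or 3 or DM1 library 2, 1 gene was lower and 0 were higher. Without DM1 library 1, 1 was lower and 2 were higher, and without DM1 library 3, 4 were lower. *Ncoa1* was called in each of these 6 fits, and *Nrip1* and *Thra* were lost in 5 and 4 of them.

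Beside TFAM, 26 genes for the replication, transcription, and RNA processing of mitochondrial DNA were examined. Of these, 4 were lower and 2 were higher, with a median log2 fold change of 0.02. The higher count is near the 7.13% of all tested genes called higher, and 8.73% of all were called lower. *Lrpprc*, whose protein stabilises mitochondrial mRNA, fell from 92.7 ± 5.62 to 63.1 ± 2.97 CPM (log2 fold change -0.55, adjusted p = 0.00462, edgeR). *Polrmt*, the mitochondrial RNA polymerase that TFAM recruits, fell from 23.4 ± 1.44 to 16.9 ± 1.29 CPM (log2 fold change -0.47, adjusted p = 0.0199, edgeR). *Elac2* and *Top1mt* fell by 0.58 and 0.50. *Dguok*, a kinase that supplies deoxynucleotides, and *Mterf1a*, a termination factor, rose by 0.47 and 0.54. The transcription factor gene *Tfb2m* was not called, with a log2 fold change of -0.02. The count of lower genes was 1 without DM1 library 2 and likewise without normal library 1, 2, or 3. The count of higher genes ranged from 0 to 5 over the same fits, with 5 without DM1 library 3, 0 without normal library 1 or 3, and 1 without any other library. *Lrpprc* was called in each of these fits, and the other 5 genes were each lost in at least 2 of them.

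Of the 13 protein-coding genes of the mitochondrial genome itself, 0 were called (edgeR's quasi-likelihood test), where 15.9% of all tested genes were. At an unadjusted p under 0.05 the count was also 0, and DESeq2 called 0. The median log2 fold change was 0.04, and single genes ranged from -0.22 for *mt-Atp8* to 0.52 for *mt-Atp6*. The value of *mt-Atp6* rests on normal library 1, at 706 CPM against 6667 and 7378 CPM in the other normal libraries, and without it the log2 fold change was 0.0075. Their summed level was 150369, 201551, and 220971 TPM in the normal and 200055, 205111, and 146414 TPM in the DM1 libraries. Normal library 1 and DM1 library 3 were low and the others high, and all mitochondrial genes together took 9.04%, 12.3%, and 12.6% of the counts in the normal and 13.5%, 13.4%, and 8.90% in the DM1 libraries. Without DM1 library 3, 2 of the 13 were called higher.

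Genes of fatty acid oxidation and other targets of the PPARs had a median log2 fold change of -0.01. Of 33 such genes 32 were tested, and 6 were lower and 0 were higher by edgeR's quasi-likelihood test, with 11 at an unadjusted p under 0.05, 1 of them higher. Over all tested genes 8.73% were called lower and 7.13% higher, and 16.0% and 14.7% at the unadjusted p. *Acot2*, a mitochondrial thioesterase, fell from 11.6 ± 1.20 to 6.68 ± 0.865 CPM (log2 fold change -0.79, adjusted p = 0.0101, edgeR). *Lpl*, which releases fatty acids from lipoproteins, fell by 0.59 (adjusted p = 0.00808, edgeR), and *Acadl*, the long-chain acyl-CoA dehydrogenase, and *Ucp2*, a carrier of the inner membrane, fell by 0.47 and 0.42. The genes most often read as PPAR targets, named for that reason after their values were seen, were not called. *Pdk4*, the kinase that shuts pyruvate dehydrogenase, had 23.7 ± 1.42 and 25.4 ± 0.927 CPM, and *Cpt1a*, which admits fatty acids to mitochondria, had 28.8 ± 1.95 and 28.6 ± 4.31 CPM. The muscle isoform *Cpt1b* had 5.66 ± 2.40 CPM in the normal and 8.84 ± 2.67 CPM in the DM1 group (log2 fold change 0.64, adjusted p = 0.277, edgeR). Without DM1 library 2 the count of lower genes was 2, without normal library 1 or 3 it was 3, and without DM1 library 3 1 gene was called higher. *Lpl* was called in each of the 6 fits, *Acot2* was lost without normal library 3 (adjusted p = 0.0529, edgeR), *Acadl* without DM1 library 2 (0.0515), and *Ucp2* in 3 fits.

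**Figure D3:**
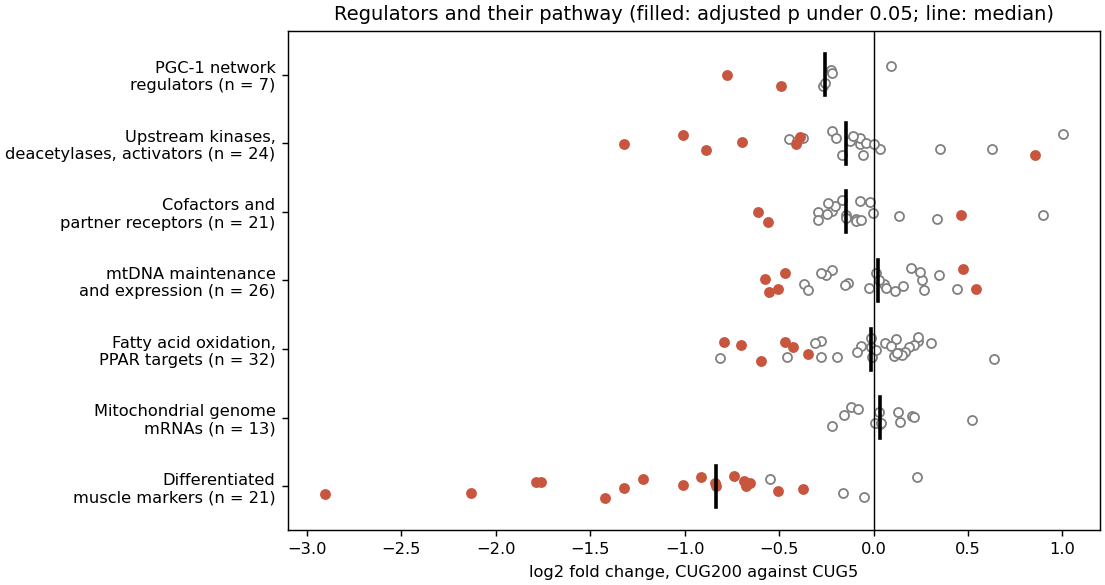
The log2 fold change, DM1 (CUG200) against normal (CUG5), of the 7 tested regulators and of the tested genes of 6 lists. Each point is a gene, filled where the adjusted p is under 0.05, with random vertical offset, and the black line is the median of the list. The median is -0.26 for the regulators, -0.83 for differentiated muscle genes, and between -0.15 and 0.04 for the other lists.

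The genes whose profile over the 6 libraries was most like that of *Ppargc1a* were sought among 14021 tested genes with at least 1 CPM on average. Likeness was the root mean square difference of log2(CPM + 0.1) after each gene's mean was subtracted. The nearest was *Nptx1*, with a difference of 0.0242, at 32.0 ± 1.05 CPM in the normal and 19.1 ± 2.23 CPM in the DM1 group. *Scn10a* (0.0313), *Usp10* (0.0423), *Deptor* (0.0434), and *Dll1* (0.0509) followed. Of these, *Deptor* encodes an inhibitor of mTOR and *Dll1* a Notch ligand. None of them was in the lists above.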

How the data were processed

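RNA-seq of 3 CUG5 and 3 CUG200 libraries at differentiation day 4 was analysed, with groups and replicate numbers from the sample titles. Per the submitters' processing notes, Trim Galore, HISAT2 (GRCm38), and StringTie made the values, with versions not given in the sources used here. The gene counts deposited by the authors are not normalized. For each library the authors also gave every gene's TPM, scaled for length and library size, and its coverage signal. Coverage multiplied by transcript length and divided by 75 was within 1 count of the deposited count for 99.1% to 99.2% of single-transcript genes, and 4 was the commonest small count, so a fragment was worth about 4 counts. Since a count is not a read, the counts overstate the number of fragments, and an alternative divides them by 4. All 6 count columns were used, and the FPKM values were not used.

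Genes were filtered with filterByExpr (minimum count 10), which left 19005 of 55421, and scaled by TMM. The main test was edgeR's robust quasi-likelihood fit of group alone, and p-values were adjusted over all tested genes by the Benjamini-Hochberg method. A gene was called at an adjusted p under 0.05, and the study's cutoff of an absolute log2 fold change over 1 was counted as well. Standard errors are the log2 fold change divided by the root of F. Members and lists were chosen with earlier results of these data known. Named were the 9 regulators, and of each list the genes past both cutoffs and up to 4 in each direction with the smallest p. *Sirt1*, *Perm1*, *Pprc1*, *Pdk4*, *Cpt1a*, *Cpt1b*, *Tfb2m*, *Mki67*, *Top2a*, *mt-Atp6*, *mt-Atp8*, and the markers that were at 0 or not called were added after their values were seen. Every pair of libraries differed by more than sampling noise. The tests were tested on simulated data. Software was edgeR 4.0.16, limma 3.58.1, and DESeq2 1.42.0 in R 4.3.3, with scipy 1.17.1 and matplotlib 3.10.9 in Python 3.11.15. Alternatives were DESeq2, its size factors, library totals alone, all genes with at least 1 count, at least 10 counts in every library, counts divided by 4, a replicate block, a fit that was not robust, limma-trend on TPM with a pseudocount of 1 or 0.1, each library left out in turn, and, chosen after seeing the data, replicate 3 of both groups left out. The transgene was not analysed here.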

Additional observations from a re-analysis of the deposited data

How the results depend on the processing

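Each group had 3 libraries, and *Esrrg* and *Ppara* were below what this depth can compare. Whether the library numbers mark pairs could not be decided from 3 libraries in a group. Deviations from the group mean of libraries with the same number correlated at 0.0838, 0.0311, and 0.0371, none over 0.1. DM1 library 2 correlated best with normal library 3 (0.0433). On the second principal component of the most variable genes, library 3 lay at -20.5 in the normal and -17.8 in the DM1 group. The other libraries lay between 6.15 and 15.3. Why library 3 of both groups lay apart was not tested. With the replicate block 2823 genes were called, *Ppargc1a* had an adjusted p of 0.0211 and *Ppargc1b* of 0.0412 (edgeR), and 1 mitochondrial DNA gene in place of 2 was called higher, the one list count it moved by over 1.5 times. The cause of the following changes was not tested.

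Called genes numbered 1284 with limma on log2(TPM + 0.1) and 1243 on log2(TPM + 1), against 3016, and the median of all genes moved to -0.09 and -0.06 from 0.02. In these fits *Esrra* was at -0.030 and -0.027, *Ppargc1a* at -0.79 (adjusted p = 0.0900, limma) and -0.52 (0.0820), *Ppargc1b* at -0.61 (0.0837) and -0.52 (0.0826), and 0 regulators were called lower. Both also called 0 upstream genes, 0 cofactors, 0 mitochondrial DNA genes, and 0 undifferentiated myoblast genes higher, 0 cofactors lower, and 2 mitochondrial DNA genes lower. *Ppargc1b* missed the threshold with library totals alone (-0.50, adjusted p = 0.0659, edgeR) and without robust estimation (-0.49, 0.0561), each leaving 1 regulator called lower. Over all 17 alternatives, left-out libraries among them, the call of *Ppargc1b* was lost in 10. Library totals alone also gave 1 lower cofactor. Of mitochondrial DNA genes, 4 were higher with DESeq2 and with counts divided by 4, and 1 with library totals alone, with all genes of at least 1 count, and without robust estimation. DESeq2 called 2 cofactors higher. Of upstream genes 2 were higher with DESeq2, with counts divided by 4, and with at least 10 counts in every library.

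With libraries left out, all genes called ranged from 1028 (without normal library 3) to 3789 (without DM1 library 3), with 1157 without DM1 library 2, 1296 without normal library 1, and 1439 without normal library 2. Regulators called lower ranged from 1 to 2, *Ppargc1b* from -0.59 to -0.38, *Esrra* from -0.011 (without DM1 library 3) to 0.21, and *Ppard* from -0.45 to 0.12, with 0.06 without replicate 3 of both groups. The log2 ratio of *Ppara* to *Ppard* differed between groups by -0.16 (without DM1 library 1) to 0.39, against 0.19. Counts higher ranged from 0 to 2 for upstream genes, cofactors, undifferentiated myoblast genes, and genes of the mitochondrial genome, from 0 to 1 for fatty acid oxidation and muscle genes, and from 0 to 5 for mitochondrial DNA genes. Counts lower ranged from 2 to 7 for upstream and fatty acid oxidation genes, from 1 to 4 for cofactors, from 1 to 5 for mitochondrial DNA genes, from 1 to 3 for undifferentiated myoblast genes, and from 0 to 1 for endothelial genes. *Ppargc1a* was called and lower in each of these fits.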
